A study of Mus musculus with 6 samples.

Results

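The genes described here code for the factors that choose splice sites and carry out splicing of pre-mRNA. They were chosen by the gene name that the array gives each probe, and comprised the SR proteins and their relatives (names beginning SFRS), the hnRNP proteins (HNRNP or HNRP), the SF3A and SF3B subunits (SF3), the proteins of the small nuclear ribonucleoproteins (SNRP, here the snRNP proteins) and the PRPF proteins. This choice took 141 of the 45281 probes of the array, which stood for 68 genes under 70 array names. Expression was profiled by Illumina MouseWG-6 v2.0 BeadChips in mouse embryonic stem (ES) cells transfected with miR-294 or with the control miRNA cel-239b of *C. elegans*, with 3 arrays in each group and 6 in all. Every cell in both groups was of 129/SvEv background and lacked *Dicer1*, so that it made no mature miRNAs of its own. The cells also lacked endogenous *Ago2* and carried a myc-tagged Ago2 under the CAG promoter, in clones grown from single colonies after Cre-GFP. They were grown without feeders in the presence of LIF, nucleofected with 300 pmol of miRNA mimic and 1 microgram of the plasmid pEGFP-1, and sorted for GFP 24 h later. Transfections were made in triplicate and nothing states that the cultures were otherwise separate, so the p-values measure the spread between these arrays, which may be technical.

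During splicing the spliceosome assembles on each intron from snRNPs, in which a ring of Sm proteins holds a small nuclear RNA, and from many further proteins that recognise the splice sites and the branch point. SR proteins mostly bind exonic enhancers and recruit this machinery, whereas hnRNP proteins coat the nascent RNA and often silence splice sites, so that the balance between both kinds shapes alternative splicing. ES cells express these factors abundantly and use splice patterns of their own. miR-294 belongs to the miRNA cluster that is most active in mouse ES cells, and it recognises messages through its seed. The mature strand of the mimic's namesake is shown because it defines the treatment, with the seed (bases 2 to 8) in capitals; RefSeq places it at chr7:3220691-3220712 on the + strand of GRCm38.p6.
mmu-miR-294-3p: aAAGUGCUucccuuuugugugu

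The raw median signal was 62.2 to 72.4 per array, and 30.6% to 32.9% of all probes were detected on an array, meaning that they were brighter than the negative controls at a detection p below 0.01. Correlations of the log2 signal over the tested probes were 0.995 to 0.997 within a group and 0.983 to 0.988 between groups. The 3 *Cdkn1a* probes, which read a known miR-294 target, had log fold changes from -1.65 to -1.57, which serves as a check of the labels. Both *Dicer1* probes were detected on every array, but where they lie relative to the deleted exon was not known here, so they check nothing about the deletion. All 9 listed ES cell markers were detected on all 6 arrays, and 4 of them (*Esrrb*, *Klf4*, *Nanog*, *Zfp42*) were higher and 1 (*Tdgf1*) was lower with miR-294. Of the markers of other cell types, 5 of 7 fibroblast genes, 3 of 5 primitive endoderm genes (*Gata4*, *Gata6*, *Sox17*), 1 of 3 mesoderm genes (*Mixl1*), 2 of 3 trophoblast genes (*Elf5*, *Hand1*) and 2 of 3 neural genes (*Pax6*, *Sox1*) were detected on no array. The markers that could be tested in these lists were higher with miR-294 in 1 fibroblast gene (*Thy1*), 2 primitive endoderm genes, 2 mesoderm genes and 1 trophoblast gene. The tested probes of *Thy1*, of *T* (mesoderm) and of *Dab2* (primitive endoderm) were detected on no cel-239b array, so they could be tested only through the group in which they were high. The summed log2 level of the primitive endoderm list was 9.48 to 9.52 on the miR-294 arrays and 8.99 to 9.08 on the cel-239b arrays. It was 7.99 to 8.15 against 7.54 to 7.58 for mesoderm, 8.16 to 8.22 against 7.78 to 7.87 for trophoblast, 8.73 to 8.80 against 8.56 to 8.58 for fibroblasts, 7.95 to 8.02 against 7.98 to 8.18 for neural genes and 16.93 to 16.97 against 16.85 to 16.88 for ES cells. The part of these shifts in the results on splicing genes was not tested, and in such bulk RNA fewer cells of a type and less RNA per cell cannot be told apart.

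The splicing genes were broadly expressed, and where they changed with miR-294 they were nearly always higher. Of the 141 probes, 103 (73%) were detected on 3 or more arrays and were tested, against 32.3% of all probes on the array, and they read 58 of the 68 genes. Of these 103 probes, 26 (25.2%) were called higher and 1 (0.971%) was called lower in miR-294-transfected cells at an adjusted p below 0.05, while 76 were not called. Over all 14621 tested probes the shares were 16% higher and 16.3% lower. The changes were small. The median log fold change (log2, miR-294 over cel-239b) was 0.11 over the 103 probes and 0.01 over all tested probes. Of the 103 values 86 were above 0. A change of more than 1.5-fold was seen in 7 of the 103 probes (6.8%), against 6.56% of all tested probes. It was seen in 6 (5.94%) of the 101 probes detected in both groups. No probe of the group reached the study's cut-off of a *B*-statistic above 5, the highest value among those detected in both groups being 2.14, whereas 1.47% of all tested probes did. At other thresholds of the same limma fit the members were below the background when both directions were pooled. Of the 103 probes 40 (38.8%) had an unadjusted p below 0.05, against 44.3% of all tested probes. An adjusted p below 0.01 was found for 11 (10.7%), against 15.8%. Of the 101 probes detected in both groups the counts were 38 (37.6%) and 10 (9.9%). By direction, all 11 probes with an adjusted p below 0.01 were higher, against 7.11% higher and 8.71% lower of all tested probes. Every miR-294 array was above every cel-239b array for 39 of the 103 probes (37.9%), against a background of 24.3%, and below for 2, against 23.6%.

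**Figure D1:**
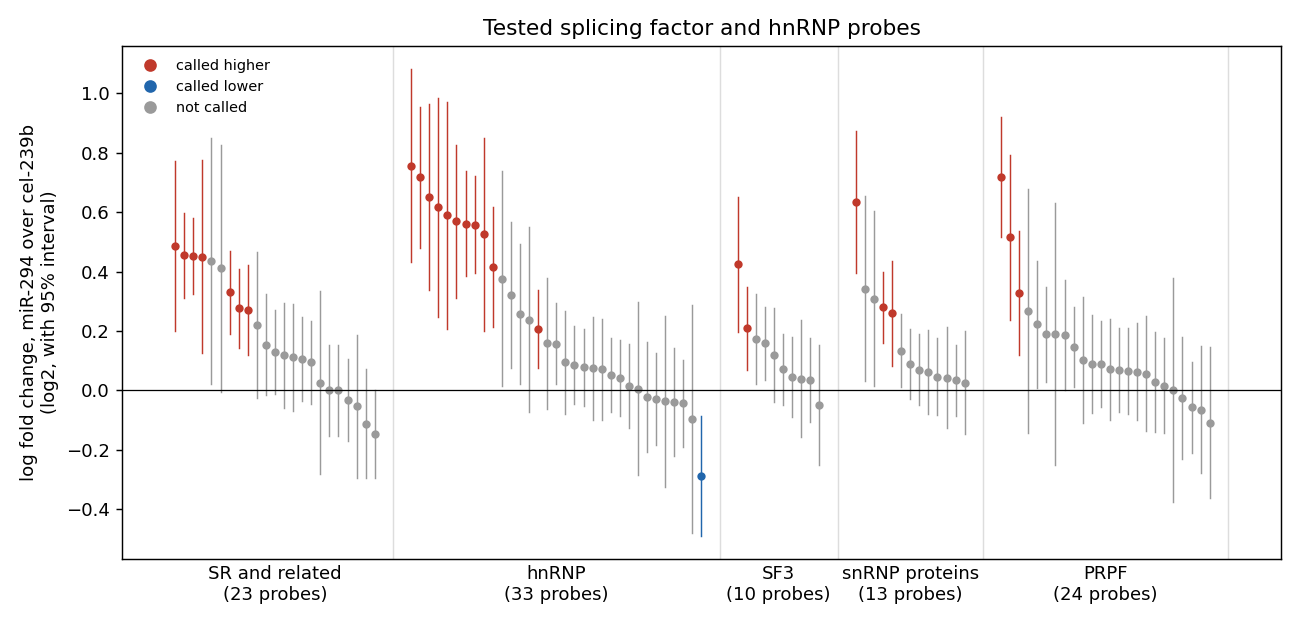
Log fold change (log2, miR-294 over cel-239b, vertical axis) with its 95% interval for each of the 103 tested probes, ordered by size within 5 classes along the horizontal axis. Red marks the 26 probes called higher, blue the 1 called lower and grey the 76 not called; 86 of the 103 values lie above 0.

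Several probes read the same gene, so the counts were also made with the brightest tested probe of each gene. On that basis 12 of 58 genes (20.7%) were higher and none was lower, against 15.6% higher and 18.1% lower of the 10250 genes tested on the array, so that the share of higher genes lay nearer to the background. The 12 include *Prpf31*, whose tested probes were detected on no cel-239b array and passed the detection filter through the treated group alone. Left-out arrays moved the share of higher genes by more than 1.5 times. It was 10.3% without cel-239b replicate 2, 10.3% without cel-239b replicate 3, and 8.77% without either miR-294 replicate 1 or 2, each below the share of all genes, 10% to 11% in those fits. It was 25.9% without cel-239b replicate 1 (15.5% of all genes) and 17.5% without miR-294 replicate 3 (11%). None of the splicing genes was lower in any of these fits, in which 12.6% to 17.6% of all genes were. A gene counted by any of its probes gave 18 of 58 genes (31%) with a higher probe and 1 (1.72%) with a lower probe, against 18.4% and 19.4% of all genes. *Prpf31* is among these 18 as well. The splicing genes were also brighter than most, with a median log2 signal of 10.50 against 8.11 for all tested probes, and 62 of the 103 lay in the brightest signal quartile of tested probes. In that quartile 14 of the 62 were higher and none was lower, against 15.6% in each direction for all its probes. In the dimmer quartiles, from the dimmest upwards, 2 of 10, 5 of 16 and 5 of 15 were higher, against 14.1%, 16.8% and 17.6% of all probes, and the 1 lower probe was among the last of these. The 2 higher probes of the dimmest quartile read *Prpf31* and were detected on no cel-239b array, so they could be tested only through the treated group. The 10 genes without a tested probe under these array names were *Hnrnpa3*, *Hnrnph2*, *Hnrnpr*, *Prpf4b*, *Sf3b1*, *Sfswap*, *Snrpb2*, *Snrpe*, *Srek1* and *Srek1ip1*. For *Sfswap* a probe under another array name was tested and was higher (log fold change 0.25, SE 0.06, adjusted p 0.0245). Only probes detected in both groups give a fold change measured on both sides, and with the 101 such probes 24 were higher and 1 was lower.

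One control array lay closer to the miR-294 arrays than the others did. Over the 103 probes the log2 signal of cel-239b replicate 1 correlated with the miR-294 arrays at 0.995 to 0.997, and with its own group at 0.995 and 0.996. It was the highest of the cel-239b arrays for 16 of the 26 higher probes and for 42.7% of the 103 probes, against 34% of all tested probes. Without this array 30 probes were higher, whereas leaving out cel-239b replicate 2 gave 17, and leaving out replicate 3 gave 18. Leaving out a miR-294 array gave 16 higher probes without replicate 1, 16 without replicate 2 and 21 without replicate 3. The share of all tested probes called higher moved too, being 16.9% without cel-239b replicate 1 and 10.1% to 11.9% without any 1 of the other arrays. No probe was called lower in 5 of the 6 fits that left out an array, and 1 was without miR-294 replicate 2. Of the 27 called probes, 15 were called in each of these fits that tested them, and the other 12 lost the call in at least 1.

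**Figure D2:**
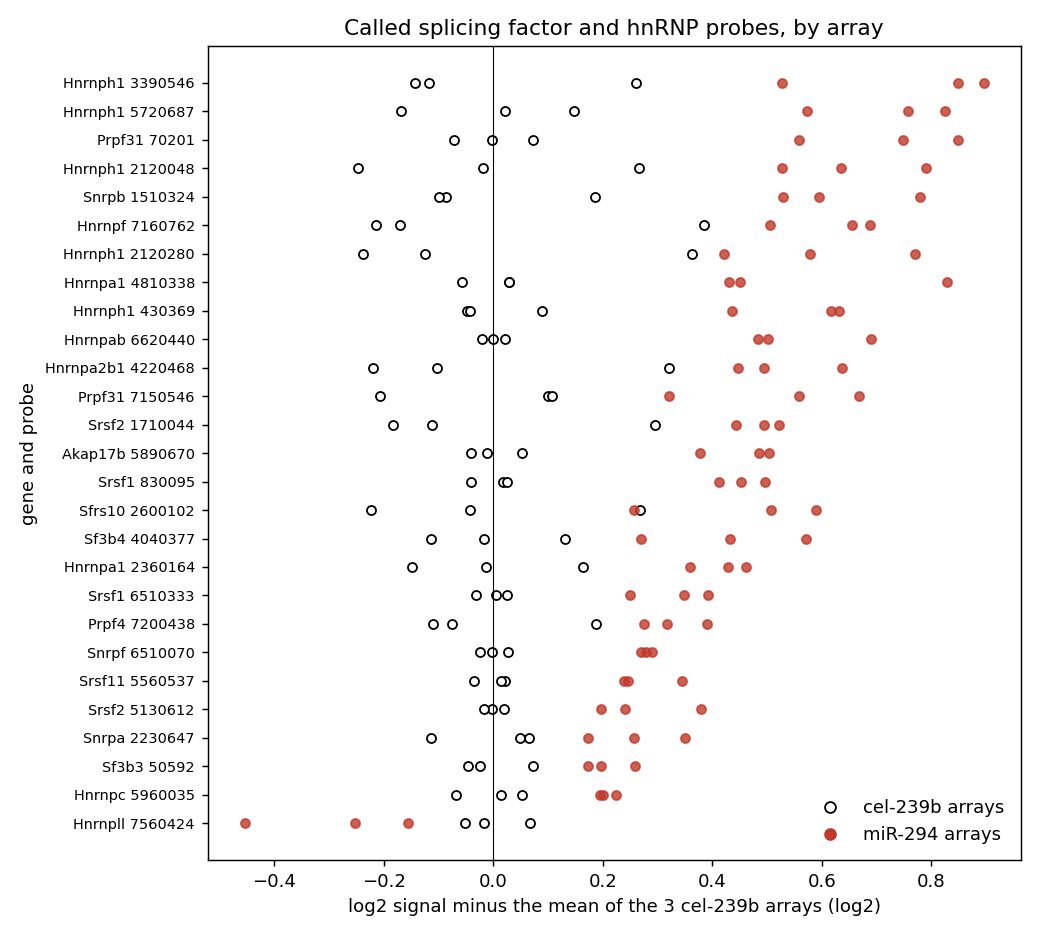
Log2 signal of the 27 called probes on each array (horizontal axis), as the difference from the mean of the 3 cel-239b arrays, with open circles for cel-239b and filled red circles for miR-294; each row is a gene with its probe number. The groups do not overlap in any row except that of *Sfrs10*, and only *Hnrnpll* has its miR-294 arrays on the left.

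The largest log fold change among the splicing genes was that of an hnRNP gene. Of 33 tested hnRNP probes 11 (33.3%) were higher, against 16% of all tested probes, and 1 was lower, with a median log fold change of 0.16. The share rests in part on several probes of a gene, since the brightest probe was higher for 3 of the 16 tested hnRNP genes (18.8%), against 15.6% of all genes. Left-out arrays gave 7 higher hnRNP probes without cel-239b replicate 2 or miR-294 replicate 2, and 8 to 12 without any 1 of the others. *Hnrnph1* (chromosome 11), whose product binds G-rich tracts near splice sites, was read by 5 probes and all 5 were higher, with log fold changes from 0.56 to 0.76. For probe 3390546 the log2 signal was 7.50, 7.10 and 7.12 on cel-239b replicates 1 to 3, and 8.13, 8.09 and 7.77 on miR-294 replicates 1 to 3. For probe 430369 it was 11.39, 11.25 and 11.25 with cel-239b, and 11.93, 11.91 and 11.73 with miR-294. In both probes cel-239b replicate 1 was the highest control and miR-294 replicate 3 the lowest treated array, and the groups did not overlap. The rise of probe 3390546 was 1.69-fold (95% interval 1.35 to 2.12; log fold change 0.76, SE 0.14, adjusted p 0.00641), and that of probe 430369 was 1.48-fold (1.31 to 1.67; log fold change 0.56, SE 0.08, adjusted p 0.00197). The groups were apart for probes 5720687 (log fold change 0.72, adjusted p 0.00237), 2120048 (0.65, adjusted p 0.0101) and 2120280 (0.59, adjusted p 0.0307) as well. The last of these was not called without cel-239b replicate 2 (adjusted p 0.0893), cel-239b replicate 3 (0.0992), miR-294 replicate 1 (0.0728) or miR-294 replicate 2 (0.0908), whereas the other 4 probes were called in every such fit.

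Further hnRNP genes are described here because they were called, and were picked after their values were seen. *Hnrnpf* (chromosome 6), a close relative of *Hnrnph1*, had 1 tested probe, with log2 signals of 9.70, 9.14 and 9.10 with cel-239b and of 9.97, 10.001 and 9.82 with miR-294. It rose 1.53-fold (log fold change 0.62, SE 0.16, adjusted p 0.0229), with cel-239b replicate 1 again the highest control. The call was lost without cel-239b replicate 2 (adjusted p 0.0731), cel-239b replicate 3 (0.0741), miR-294 replicate 1 (0.0643) or miR-294 replicate 2 (0.0685). *Hnrnpa2b1* (chromosome 6), whose product binds RNA in splicing and transport, had 1 higher probe (log fold change 0.53, SE 0.14, adjusted p 0.0256), and its call was lost without cel-239b replicate 2 (0.0722), cel-239b replicate 3 (0.0857), miR-294 replicate 1 (0.0588) or miR-294 replicate 2 (0.0778). Its other tested probe, 4230706, was not called (0.24, 95% interval -0.07 to 0.55). *Hnrnpc* (chromosome 14), which codes for a protein that binds uridine tracts, had 1 higher probe. Its rise was the smallest among the higher probes of the class (log fold change 0.21, SE 0.06, adjusted p 0.0293). Of the fits that left out an array this probe was called only in that without cel-239b replicate 3, the adjusted p lying between 0.0657 and 0.0794 without cel-239b replicate 1 or 2 or any of the miR-294 arrays. The brighter *Hnrnpc* probe 830204 was not called (log fold change 0.09, 95% interval -0.05 to 0.22). In all, 21 tested probes of the class were not called, among them those of *Hnrnpk*, *Hnrnpl*, *Hnrnpm*, *Hnrnpu*, *Hnrnpd*, *Hnrnpdl*, *Hnrnpa0*, *Hnrnph3* and *Hnrnpul1*. Of these *Hnrnpk* probe 2970408 came closest (log fold change 0.32, 95% interval 0.07 to 0.57, adjusted p 0.0532), and it was called higher in 8 of the 15 alternative fits.

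*Hnrnpll* (chromosome 17), which codes for a regulator of alternative splicing known from lymphocytes, was the exception in direction. Probe 7560424 had log2 signals of 9.42, 9.46 and 9.54 with cel-239b and of 9.02, 9.32 and 9.22 with miR-294. Each treated array was below each control, and miR-294 replicate 1 was the lowest. It fell by 0.29 on the log2 scale (SE 0.09, adjusted p 0.0396), but of the fits that left out an array only that without miR-294 replicate 2 kept the call, and median scaling in place of quantile normalization ended it (adjusted p 0.0608). Without cel-239b replicates 1, 2 or 3 the adjusted p was 0.0508, 0.0880 and 0.119, and without miR-294 replicate 1 or 3 it was 0.0851 and 0.0745. The other probe of the gene, 1400315, was not called (log fold change -0.04, 95% interval -0.19 to 0.10).

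Promoters of members that were higher together were read from RefSeq (GRCm38.p6), as windows of 300 bases from 250 before to 50 after each start. Of the 68 genes 60 had an entry under their symbol, with 80 windows, and of the 18 genes with a higher probe 15 did. *Sf3b4* and *Snrpb* had none. SFRS10 could not be looked up, since this array name was not tied to 1 current symbol. Windows were searched on both strands for CCAAT, for the E-box letters CACGTG, for the ETS-type letters CCGGAAGT and for the NRF1-type letters GCATGCGC, none of which contains another. CCAAT was in a window of 12 of the 15 genes with a higher probe (80%), of 13 of the 35 tested genes without a called probe that had an entry (37.1%) and of 41.1% of all 27025 genes with an entry. The 3 higher genes without CCAAT were *Prpf4*, *Snrpa* and *Srsf11*. *Prpf31*, whose higher probes were detected on no cel-239b array, is among the 12 with it. By windows the shares were 64% of 25, 37.2% of 43 and 37.4% of 32851, where windows of a gene can overlap. CACGTG was in 13.3% of the higher genes, 17.1% of the tested genes without a call and 8.09% of all genes. For CCGGAAGT the shares were 13.3%, 20% and 4.31%, and for GCATGCGC 13.3%, 5.71% and 3.05%. These are descriptions of letters in windows, with no test. 4 windows that hold CCAAT are printed as examples from the higher genes, from 1 match in the second of the 5 windows of *Hnrnph1* to 4 in *Hnrnpa1*, with CCAAT or its reverse complement in capitals.
*Hnrnph1* promoter window, chr11:50377428-50377727, + strand: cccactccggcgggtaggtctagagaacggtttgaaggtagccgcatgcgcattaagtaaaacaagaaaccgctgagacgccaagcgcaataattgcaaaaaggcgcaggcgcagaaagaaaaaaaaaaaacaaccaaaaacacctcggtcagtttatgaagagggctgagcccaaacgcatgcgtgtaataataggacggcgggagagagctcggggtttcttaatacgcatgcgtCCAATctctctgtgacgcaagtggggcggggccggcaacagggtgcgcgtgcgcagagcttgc
*Hnrnpa1* promoter window, chr15:103240147-103240446, + strand: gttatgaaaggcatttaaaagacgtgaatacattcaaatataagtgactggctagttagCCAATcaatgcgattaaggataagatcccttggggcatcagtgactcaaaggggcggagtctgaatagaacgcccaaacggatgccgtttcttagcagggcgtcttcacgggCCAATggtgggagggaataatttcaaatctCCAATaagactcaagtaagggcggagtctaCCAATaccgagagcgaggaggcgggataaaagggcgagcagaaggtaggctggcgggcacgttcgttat
*Hnrnpab* promoter window, chr11:51606832-51607131, - strand: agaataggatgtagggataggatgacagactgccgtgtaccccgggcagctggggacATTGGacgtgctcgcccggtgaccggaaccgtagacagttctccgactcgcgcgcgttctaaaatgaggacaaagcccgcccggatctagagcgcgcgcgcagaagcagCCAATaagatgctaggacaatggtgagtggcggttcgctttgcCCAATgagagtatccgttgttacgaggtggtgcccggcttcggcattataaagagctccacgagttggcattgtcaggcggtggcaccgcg
*Snrpf* promoter window, chr10:93589609-93589908, - strand: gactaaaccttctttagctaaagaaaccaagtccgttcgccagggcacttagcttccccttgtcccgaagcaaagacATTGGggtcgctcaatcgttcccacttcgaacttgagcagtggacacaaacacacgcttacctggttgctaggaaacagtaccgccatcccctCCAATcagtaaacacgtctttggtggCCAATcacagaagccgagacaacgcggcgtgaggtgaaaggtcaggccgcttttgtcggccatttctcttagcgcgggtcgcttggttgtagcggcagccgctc

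Among the SR proteins and their relatives 7 of 23 tested probes (30.4%) were higher and none was lower, against 16% and 16.3% of all tested probes, with a median log fold change of 0.13. Without cel-239b replicate 2 the count was 4, and without any 1 of the other arrays it was 5 to 10. By the brightest probe 4 of 15 genes (26.7%) were higher, against 15.6% of all genes. *Srsf1* (chromosome 11), the founding SR protein, was higher in both of its tested probes. Its probe 830095 read 12.38, 12.43 and 12.44 with cel-239b and 12.91, 12.87 and 12.83 with miR-294 on the log2 scale. The 3 control arrays lay close together, as did the 3 treated arrays, with a clear gap between them. This probe rose 1.37-fold (95% interval 1.25 to 1.497; log fold change 0.45, SE 0.06, adjusted p 0.00130) and probe 6510333 rose 1.26-fold (log fold change 0.33, SE 0.06, adjusted p 0.00621). Both were called in each fit that left out an array. *Akap17b* (chromosome X), listed on the array as SFRS17B, was higher too (log fold change 0.46, SE 0.06, adjusted p 0.00194). A further probe that RefSeq's synonyms assign to *Akap17b*, and which the choice by name did not take, gave a log fold change of 0.44 (SE 0.06, adjusted p 0.00173).

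*Srsf2* (chromosome 11), which codes for the SR protein also called SC35, had 2 of 3 probes higher. Probe 1710044 read 7.16, 6.76 and 6.68 with cel-239b and 7.39, 7.31 and 7.36 with miR-294. Again cel-239b replicate 1 was the highest control, without reaching the treated arrays. Its log fold change was 0.49 (SE 0.12, adjusted p 0.0218), and the call was lost without cel-239b replicate 2 (0.0712), cel-239b replicate 3 (0.0690), miR-294 replicate 1 (0.0626) or miR-294 replicate 3 (0.0575). Probe 5130612 had a log fold change of 0.27 (SE 0.06, adjusted p 0.0176), which passed the threshold in all fits that left out an array except that without cel-239b replicate 2 (0.0552). Probe 7550292 was not called (0.11, 95% interval -0.03 to 0.25).

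Outside the named set of the class, and picked after their values were seen, *Srsf11* and SFRS10 were the remaining called genes. *Srsf11* probe 5560537 was higher (log fold change 0.28, SE 0.06, adjusted p 0.0102; 0.0907 under median scaling), while its other 2 probes had larger values that were not called, 0.44 (95% interval 0.02 to 0.85) and 0.41 (-0.01 to 0.83). A further *Srsf11* probe under another array name was at -0.15 (SE 0.11, adjusted p 0.341). The array name SFRS10 could not be tied to 1 current symbol, and its tested probe had a log fold change of 0.45 (SE 0.14, adjusted p 0.0439). Its groups overlapped, since cel-239b replicate 1 read 10.82 and miR-294 replicate 3 read 10.80. The call was lost without cel-239b replicate 2 (0.119), cel-239b replicate 3 (0.119), miR-294 replicate 1 (0.110) or miR-294 replicate 2 (0.122). The probes of *Srsf3*, *Srsf4*, *Srsf5*, *Srsf6*, *Srsf7* and *Srsf9*, which code for further SR proteins, were not called, with log fold changes from -0.03 to 0.22. For *Srsf7* a probe under another array name was higher (log fold change 0.30, SE 0.07, adjusted p 0.0122), whereas its probe in the class was at 0.00 (95% interval -0.15 to 0.15).

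All 13 tested probes of the snRNP proteins had log fold changes above 0, and 3 of them (23.1%) were higher, against 16% of all tested probes. *Snrpb* (chromosome 2), which codes for the Sm proteins B and B′, had the largest change of the class. Its probe 1510324 read 9.72, 9.45 and 9.43 with cel-239b and 10.13, 10.31 and 10.06 with miR-294. Controls and treated arrays did not overlap, with cel-239b replicate 1 as the highest control. It rose 1.55-fold (95% interval 1.32 to 1.83; log fold change 0.63, SE 0.10, adjusted p 0.00381) and was called in each fit that left out an array. The other 2 *Snrpb* probes were not called, with log fold changes of 0.09 (95% interval -0.03 to 0.21) and 0.04 (-0.13 to 0.21). *Snrpf* (chromosome 10), another ring protein, read 11.43, 11.45 and 11.48 with cel-239b and 11.74, 11.75 and 11.73 with miR-294. The arrays of each group lay close together and the groups were apart. It rose 1.21-fold (log fold change 0.28, SE 0.05, adjusted p 0.00634) and kept its call whichever array was left out.

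The remaining Sm ring genes were not called. *Snrpd1* had log fold changes of 0.06 (95% interval -0.08 to 0.20) and 0.03 (-0.08 to 0.15), *Snrpd2* of 0.05 (-0.08 to 0.18), *Snrpd3* of 0.13 (0.01 to 0.26, adjusted p 0.0904), and *Snrpg* of 0.31 (0.01 to 0.60, adjusted p 0.101) and 0.03 (-0.15 to 0.20). *Snrpe* was not tested. Of the U1 snRNP proteins, which recognise the 5′ splice site, *Snrpa* (chromosome 7) had 1 higher probe (log fold change 0.26, SE 0.08, adjusted p 0.0359) and 1 that was not called (0.07, 95% interval -0.05 to 0.19). The call of the former was lost without cel-239b replicate 2 (0.1002), cel-239b replicate 3 (0.0670), miR-294 replicate 1 (0.0832) or miR-294 replicate 2 (0.106). *Snrnp70* had a log fold change of 0.34 (95% interval 0.03 to 0.65) with an adjusted p of 0.0875.

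The SF3A and SF3B proteins belong to the U2 snRNP, which recognises the branch point, and 2 of their 10 tested probes (20%) were higher, near the 16% of all tested probes. *Sf3b4* (chromosome 3) probe 4040377 read 8.32, 8.17 and 8.07 with cel-239b and 8.76, 8.62 and 8.46 with miR-294. The groups were apart, and the log fold change was 0.42 (SE 0.10, adjusted p 0.0152), with the call lost only without cel-239b replicate 3 (adjusted p 0.0549). The other *Sf3b4* probes were at 0.04 (95% interval -0.10 to 0.18) and -0.05 (-0.25 to 0.15) and were not called. *Sf3b3* (chromosome 8) had a log fold change of 0.21 (SE 0.06, adjusted p 0.0330), which passed without cel-239b replicate 2 but not without cel-239b replicate 1 or 3 or any 1 miR-294 array, where the adjusted p was 0.0610 to 0.102. Median scaling ended this call too (adjusted p 0.102). The values that were not called were 0.17 for *Sf3a1* (95% interval 0.02 to 0.32), 0.16 for *Sf3a3* (0.04 to 0.28), 0.12 for *Sf3b2* (-0.04 to 0.28), 0.04 for *Sf3a2* (-0.16 to 0.24), and 0.07 (-0.05 to 0.19) and 0.04 (-0.09 to 0.18) for *Sf3b5*.

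The PRPF proteins mostly belong to the U4/U6.U5 tri-snRNP, and 3 of their 24 tested probes (12.5%) were higher, below the 16% of all tested probes. 2 of the 3 read *Prpf31* (chromosome 7). Every treated array but no control array detected the 2 *Prpf31* probes, so they passed the detection filter through the treated group alone, and only a bound is given, with no p. Of the 22 PRPF probes detected in both groups 1 was higher. Probe 70201 read 5.43, 5.50 and 5.58 with cel-239b and 6.35, 6.25 and 6.06 with miR-294, which makes it at least 1.41-fold higher. For probe 7150546 the bound was at least 1.11-fold higher. The bounds set the mean of the treated arrays against the lowest detected signal of each control array. A probe that RefSeq's synonyms assign to *Prpf31*, under another array name, was at 0.03 (SE 0.10, adjusted p 0.846). Without any 1 of the miR-294 arrays neither *Prpf31* probe in the class was detected on 3 arrays, so neither was tested. *Prpf4* (chromosome 4), which codes for a partner of U4/U6, had 1 higher probe, 7200438, with signals of 9.45, 9.19 and 9.16 against 9.66, 9.58 and 9.54. Its log fold change was 0.33 (SE 0.09, adjusted p 0.0287), and of the fits that left out an array it was called only in that without cel-239b replicate 1, at an adjusted p of 0.0541 to 0.0915 without any 1 of the others. Its other probe was at 0.10 (95% interval -0.11 to 0.31) and was not called. None of the probes of *Prpf8* and *Prpf6*, core proteins of the U5 particle, of *Prpf3*, or of *Prpf19*, a ubiquitin ligase of the spliceosome, was called.

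Probes of the same gene were often not called alike, although only 1 of 45 tested differences in size between them was called. Of the 30 genes with several tested probes, 25 had all values on 1 side of 0, 3 had every probe of the class called higher (*Hnrnph1*, *Srsf1* and *Prpf31*, the last with probes detected in the treated group alone and a further probe under another array name that was not called), 11 had a called probe beside one that was not called, and none had probes called in opposite directions. *Hnrnpa1* (chromosome 15), whose product binds exonic silencers, and *Hnrnpab* (chromosome 11), a relative of it, are named for this contrast after their values were seen. *Hnrnpab* probe 6620440 read 7.74, 7.72 and 7.70 with cel-239b and 8.41, 8.20 and 8.22 with miR-294 (log fold change 0.56, SE 0.07, adjusted p 0.00150). Probe 2570564 of the gene read 14.40, 14.37 and 14.35 with cel-239b and 14.46, 14.31 and 14.40 with miR-294 (log fold change 0.01, 95% interval -0.13 to 0.16). The former separated the groups and the latter did not, and the difference between both log fold changes was 0.54 (SE 0.08, adjusted p 0.0407). This was the only called difference among 45 such pairs of the splicing genes, each set against the brightest probe of its gene, in a test that called 0.549% of 4371 pairs over the array. For *Hnrnpa1*, probes 4810338 (log fold change 0.57, SE 0.11, adjusted p 0.00812) and 2360164 (0.42, SE 0.09, adjusted p 0.0105) were higher and probe 7610711 was not called (-0.04, 95% interval -0.22 to 0.14). The differences from probe 7610711 were 0.61 (95% interval 0.28 to 0.94, adjusted p 0.104) and 0.46 (0.13 to 0.78, adjusted p 0.172), which did not pass. Those of *Snrpb* probe 1510324 (0.55, 95% interval 0.29 to 0.80, adjusted p 0.0773) and *Sf3b4* probe 4040377 (0.39, 0.18 to 0.60, adjusted p 0.105) did not pass either. Probe sequences were not used here, so which transcript forms each probe reads is not known.

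**Figure D3:**
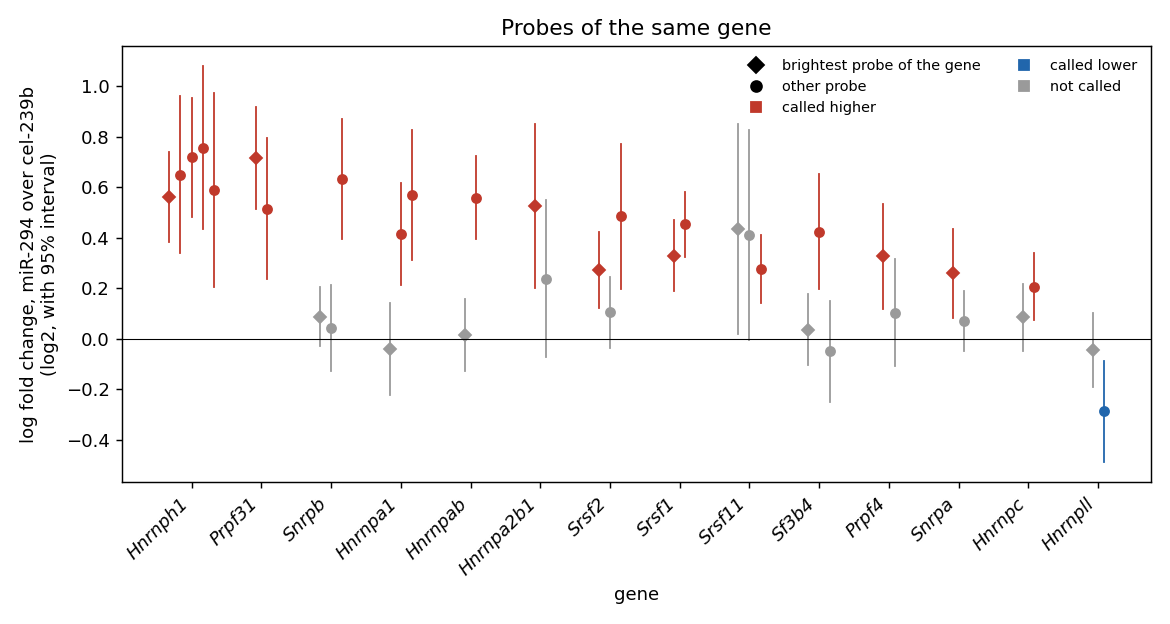
Log fold change (log2, miR-294 over cel-239b, vertical axis) with its 95% interval for each tested probe of the genes that had several tested probes and at least 1 call; diamonds mark the brightest probe of a gene, circles the others, red a higher call, blue a lower call and grey none. All 5 probes of *Hnrnph1* are red, whereas *Hnrnpab* has 1 probe at 0.56 and its brightest at 0.01.

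Other splicing genes, outside the name rule, were listed from their known roles and read with 1 probe per gene. Of 118 listed genes 105 were tested, of which 26 (24.8%) were higher and 7 (6.67%) were lower, against 15.6% and 18.1% of all genes. The higher share depended on the processing, being 12.4% under median scaling (9.86% of all genes) and 14.3% to 15.2% when cel-239b replicate 2, cel-239b replicate 3, miR-294 replicate 1 or miR-294 replicate 2 was omitted, where 10% to 11% of all genes were higher. The group listed as splice site and branch point recognition, which also holds proteins of other steps, had 6 of 24 higher and none lower. It was led by *Usp39* (log fold change 0.29, adjusted p 0.0117), which codes for a protein of the tri-snRNP. *U2af1*, *U2af2*, *Sf1* and *Puf60* of this group were not called. In the Sm core assembly group, whose products prepare Sm proteins and load them onto snRNA, 4 of 14 were higher, led by *Wdr77* (0.36, adjusted p 0.00887), and none was lower. The complex around *Prpf19*, which acts in activation of the spliceosome, had 4 of 9 higher and none lower; *Snw1* (0.47, adjusted p 0.0384) led but was detected on only 2 of the cel-239b arrays, and *Crnkl1* was detected on none of them. LSm proteins, some of which form the ring on U6, had 2 of 8 higher, led by *Lsm6* (0.37, adjusted p 0.0104). In the exon junction complex 3 of 8 were higher, led by *Magohb* (0.28, adjusted p 0.0315), and *Sap18* was lower (-0.28, adjusted p 0.0274).

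Lower genes were 14.3% of the kinases and coactivators of SR proteins and 14.3% of the further splicing regulators, below the 18.1% of all genes. Among the kinases and coactivators of SR proteins, *Clk1* was higher (log fold change 0.55, SE 0.09, adjusted p 0.00358) and *Clk4* was lower (-0.21, SE 0.06, adjusted p 0.0301), both of which phosphorylate SR proteins; in all 2 of 7 were higher and 1 was lower. Among the further splicing regulators 5 of 35 were higher and 5 were lower, with *Srsf10*, an SR protein listed on the array as FUSIP1, the highest of the called genes (0.34, adjusted p 0.0153) and *Esrp1*, an epithelial splicing regulator, the lowest of them (-0.51, SE 0.06, adjusted p 0.00123). *Mbnl1* (-0.42, adjusted p 0.00377), *Mbnl2* (-0.37, adjusted p 0.00938) and *Celf2* (-0.34, adjusted p 0.00993), which code for RNA-binding regulators of developmental splice patterns, were lower as well and were picked after their values were seen. Of the 14 probes that RefSeq's synonyms assign to 12 genes of the named classes, but which the array lists under other names, 8 were tested, and 3 were higher and 1, of *Scaf4*, was lower (-0.29, SE 0.08, adjusted p 0.0360). Over all tested probes 16% were higher and 16.3% were lower.

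**Figure D4:**
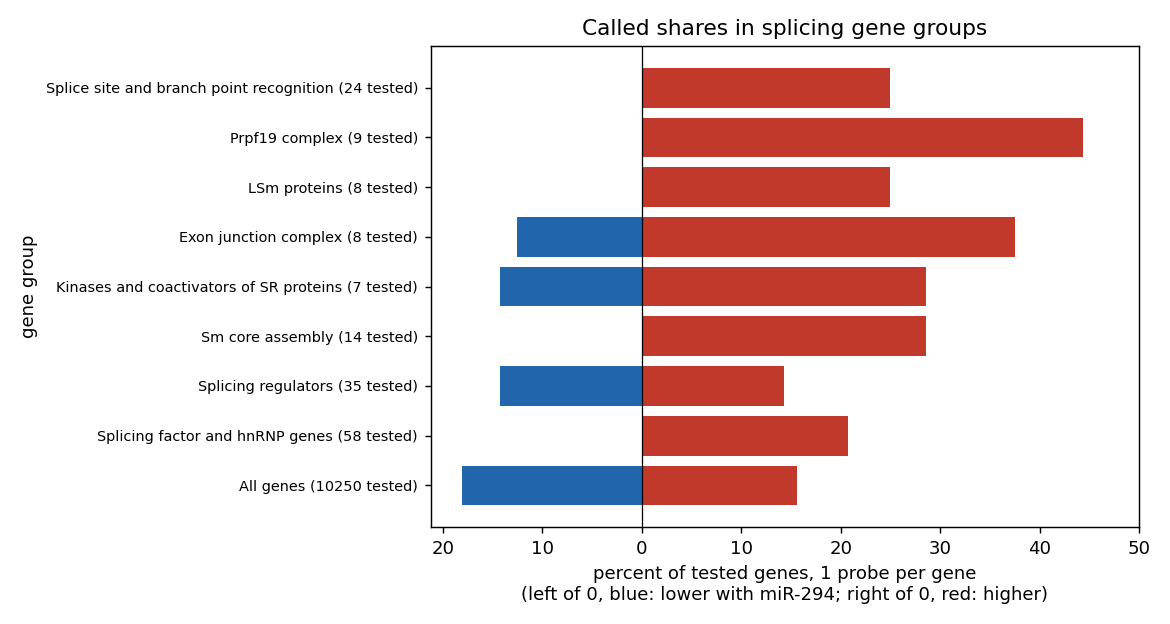
Share of tested genes called higher (red, right of 0) or lower (blue, left of 0) with miR-294, in percent with 1 probe per gene, for the 7 groups of other splicing genes, the splicing factor and hnRNP genes and all genes. The splicing factor and hnRNP genes stand at 20.7% higher and none lower, beside 15.6% and 18.1% of all genes.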

How the data were processed

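RNA of 6 transfections was hybridised to Illumina MouseWG-6 v2.0 arrays. The authors deposited the probe signal intensity, its bead standard deviation and number of beads, and a detection score (1 minus the detection p), exported from GenomeStudio 1.0.6 with no normalization; 24 further columns were not used. Here, in R 4.3.3 with limma 3.58.1, background was corrected by normexp from the detection scores (offset 16), arrays were quantile normalized and values taken to log2. Probes with a score above 0.99 on 3 or more arrays were tested by lmFit and eBayes without a block (prior share 0.01 for *B*), with Benjamini-Hochberg adjustment over all 14621 tested probes; the call is an adjusted p below 0.05. The number of arrays limits the precision, and an exact permutation test of 3 against 3 arrays cannot go below 0.1. The fit was tested on simulated data. Current symbols come from RefSeq (GRCm38.p6). The members and gene lists were chosen with earlier results of these data known. The text names, in each class, the 3 called probes with the largest change in each direction among those with groups apart, all probes of their genes, the Sm ring and SF3 genes, and in each group of other splicing genes the called gene with the largest change in each direction; *Lefty1*, also on that list of names, is not described. Alternatives changed background, offset, normalization, detection filter, block, array weights, threshold and each array in turn. The test of differences between probes of a gene and the count of members detected in both groups were added after seeing the data.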

Additional observations from a re-analysis of the deposited data

How the results depend on the processing

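All 26 higher probes stayed above 0 in each alternative that tested them, and 14 of the 27 calls held in each of the 15 alternative fits that tested them; 11 of the 76 probes not called gained a call in at least 1. Left-out arrays gave 16 to 30 higher and 0 to 1 lower probes, against 10.1% to 16.9% higher and 11.1% to 15.9% lower of all probes; by class the higher probes were 4 to 10 for SR, 7 to 12 for hnRNP, 0 to 2 for SF3, 2 to 4 for snRNP proteins and 0 to 3 for PRPF. They gave 5 to 15 higher genes with 1 probe per gene (10% to 15.5% of all genes), and 15 to 24 higher and 4 to 10 lower other splicing genes. A *B*-statistic above 5 left 0 probes in every class and direction, and an adjusted p below 0.01 left 11 higher (7.11% of all probes) and 0 lower (3 SR, 5 hnRNP, 0 SF3, 2 snRNP proteins, 1 PRPF, the last a *Prpf31* probe detected on no control array). Median scaling gave 0 lower probes, 1 SF3 probe and 13 other splicing genes higher, and also ended the call of *Hnrnpc*; cyclic loess and detection on 1 array ended that of SFRS10. Without a detection filter 0 probes were lower, and 1 SF3 probe, 7 genes and 17 other splicing genes were higher, and 9 calls ended (*Hnrnpa2b1*, *Hnrnpf*, *Hnrnph1* probe 2120280, *Hnrnpll*, *Prpf4*, *Sf3b3*, SFRS10, *Srsf2* probe 1710044 and *Snrpa*). Detection on 1 array gave 2 lower probes, and detection on all 6 gave 1 higher PRPF probe. SF3 had 4 higher probes with no background correction and 4 with cyclic loess. Counting any called probe gave 1 lower gene. The cause was not tested except for the stricter thresholds and filters, which by construction keep fewer probes. Replicate numbers are shared between the groups, but nothing states that same-numbered arrays were handled together. Their deviations from the group means correlated at 0.14, -0.08 and 0.14, which shows no clear pairing but cannot exclude it. With the replicate block 25 probes were higher and 1 lower. Of the 26 higher calls 22 were shared (*Hnrnpc*, *Sf3b3*, SFRS10 and *Snrpa* lost theirs), and 1 SF3 probe was higher.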
